A study of Homo sapiens with 33 samples.

Results

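MITF carrying rep217A was compared with MITF carrying G244E by where each left its strongest peaks in the genome of UACC-257 cells, which come from a human melanoma and are an established line. The peak lists titled rep217A and G244E were taken, 6 of the 33 deposited libraries in 11 groups of 3. Replicates 2 and 3 of rep217A held identical values and were counted once, so 2 distinct rep217A lists were set against 3 G244E lists, 5 of the 31 distinct lists of the series. Cells of both groups, like those of all 11, carry the labels MITF knockdown and doxycycline. An anti-HA antibody directed the transposase of CUT&Tag, which cuts and tags DNA around the protein bound by the antibody. The titles are read here as HA-tagged MITF variants, though the labels spell out neither the tag nor how the variant was expressed, or whether a line is 1 clone. G244E reads as a glycine-to-glutamate substitution in the usual notation. The labels do not say what the prefix of rep217A stands for, and it is used here only as a name. The groups K243A, rep263A, A264C, E260A, Q261A, N278D and Y253A, wild type (WT) and Empty served as context. Whether the replicates came from separate cultures is not given in the labels, so each p-value measures no more than the spread between these lists.

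MITF is the basic helix-loop-helix leucine zipper factor that directs melanocyte identity. It binds DNA as a dimer, at E-boxes such as CACGTG and at the M-box, an E-box of the form CATGTG. Its known targets include pigment genes such as TYR and PMEL, and it shares with its relatives TFEB and TFE3 a set of lysosomal targets such as subunits of the proton pump. Many of these sites lie in promoters, and others lie in distant enhancers inside or between genes.

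The strongest peaks of the 2 variants lay at different kinds of site, as the values further on show. Promoters that carry the contrast are given here as RefSeq windows on GRCh38.p14, from 250 bases before to 50 after the transcription start. Shown are the first 3 of each variant, in the order of their peak ranks, that lie whole under a favoured region. Capitals mark the E-box CACGTG, the M-box core CATGTG, the AP-1 element TGANTCA, and the GC box GGGCGG bound by SP1 and its relatives, each on either strand.

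Among the regions favoured by rep217A, the windows were those of MAF (chr16:79600688-79600987, minus strand), CTSD (chr11:1763878-1764177, minus strand) and MBP (chr18:77017006-77017305, minus strand). MAF encodes a leucine zipper transcription factor, CTSD the lysosomal protease cathepsin D and MBP myelin basic protein, and the MBP window belongs to a start inside the gene.
MAF: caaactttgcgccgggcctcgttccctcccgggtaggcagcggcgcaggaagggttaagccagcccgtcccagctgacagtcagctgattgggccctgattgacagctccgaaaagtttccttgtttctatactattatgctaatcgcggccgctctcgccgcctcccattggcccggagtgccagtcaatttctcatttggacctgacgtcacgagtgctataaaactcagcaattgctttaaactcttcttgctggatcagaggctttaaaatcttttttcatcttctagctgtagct
CTSD: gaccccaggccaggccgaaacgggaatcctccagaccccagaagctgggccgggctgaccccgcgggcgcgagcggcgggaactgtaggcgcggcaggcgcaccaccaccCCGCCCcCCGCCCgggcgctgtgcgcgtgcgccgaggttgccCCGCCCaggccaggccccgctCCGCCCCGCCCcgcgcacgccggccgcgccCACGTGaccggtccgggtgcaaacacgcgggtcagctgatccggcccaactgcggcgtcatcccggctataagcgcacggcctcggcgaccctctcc
MBP: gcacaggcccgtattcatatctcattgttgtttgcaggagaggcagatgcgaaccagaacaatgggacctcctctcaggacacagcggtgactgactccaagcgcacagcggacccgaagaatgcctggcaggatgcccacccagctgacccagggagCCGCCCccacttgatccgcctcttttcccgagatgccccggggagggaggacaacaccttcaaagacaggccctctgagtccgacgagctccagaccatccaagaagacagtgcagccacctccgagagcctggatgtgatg

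Among the regions favoured by G244E, the windows were those of LIPT1 (chr2:99154717-99155016, plus strand), which encodes a lipoyltransferase, GUCD1 (chr22:24555089-24555388, minus strand) and DBF4 (chr7:87876243-87876542, plus strand), the activating subunit of the CDC7 replication kinase.
LIPT1: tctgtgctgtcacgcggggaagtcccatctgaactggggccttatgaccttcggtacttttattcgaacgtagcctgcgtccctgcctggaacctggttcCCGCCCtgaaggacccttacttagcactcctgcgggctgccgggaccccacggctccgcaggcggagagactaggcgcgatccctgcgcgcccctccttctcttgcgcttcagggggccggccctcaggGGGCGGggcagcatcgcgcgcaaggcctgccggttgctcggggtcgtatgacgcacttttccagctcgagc
GUCD1: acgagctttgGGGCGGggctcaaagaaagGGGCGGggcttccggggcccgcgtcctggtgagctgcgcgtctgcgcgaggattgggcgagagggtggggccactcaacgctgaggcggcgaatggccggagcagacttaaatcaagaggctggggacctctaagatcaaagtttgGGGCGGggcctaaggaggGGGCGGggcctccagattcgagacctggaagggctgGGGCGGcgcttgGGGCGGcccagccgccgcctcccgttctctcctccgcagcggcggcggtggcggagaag
DBF4: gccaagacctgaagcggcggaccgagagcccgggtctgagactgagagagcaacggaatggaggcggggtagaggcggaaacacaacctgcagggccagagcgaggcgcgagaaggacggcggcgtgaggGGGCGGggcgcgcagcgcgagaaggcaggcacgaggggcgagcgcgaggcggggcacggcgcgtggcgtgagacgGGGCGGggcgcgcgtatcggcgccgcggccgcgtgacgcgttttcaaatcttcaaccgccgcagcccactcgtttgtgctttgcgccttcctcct

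The MAF window was 51.7% G or C and the MBP window 59.7%, against 65.7% in LIPT1, 69.3% in GUCD1 and 70.7% in DBF4. CTSD, at 77.3%, was the richest of the 6. CTSD, with folds of 10.7 and 12.6 in rep217A, against 4.77, 4.45 and 5.80 in G244E, also held the 1 CACGTG found among them, while MAF held no match of any kind. These folds are those of the region over the window. Further inside CTSD, a peak of the second G244E list (chr11:1760435-1760800) ranked 9157 with a fold of 6.99. GC boxes were found 5 times in CTSD and 1 time in MBP, against 2 times in LIPT1, 6 times in GUCD1 and 2 times in DBF4. These matches describe the letters of the windows and not binding sites.

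The complete lists held 182189 and 227446 peaks in rep217A, against 300000, 300000 and 100041 in G244E. Relative depth, read from the commonest background pileup of each list, was 0.276 and 0.348 in rep217A, against 0.129, 0.108 and 0.151 in G244E, a ratio of 2.41 between the means. Folds and widths are given beside this difference in depth, and its part in them was not tested. WT lists averaged 1.15 ± 0.0637 (SD, n = 3) and Empty lists sat at an upper limit of 0.0300. Equal numbers of peaks were therefore compared, namely the 10000 of highest −log10 q in each list, called the strongest peaks. The weakest of these had a −log10 q of 19.50 and 22.33 in rep217A, against 12.32, 9.74 and 13.21 in G244E. The next peak outside the limit had the same −log10 q in each of these lists. In the Empty lists the weakest of the 10000 had a −log10 q of 1.9, 1.8 and 1.6. A place among the strongest peaks of Empty can therefore be a weak call.

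Peaks coincided more often between lists of the same variant than between variants. Of the strongest peaks of 1 rep217A list, 82.5% and 82.6% overlapped those of the other rep217A list, and pairs of G244E lists overlapped by 77.0% to 79.1%. Between the variants, 58.8% to 61.5% of rep217A peaks overlapped a G244E list and 60.5% to 62.9% of G244E peaks overlapped a rep217A list. The overlap within variants exceeded that between them by 18.0 percentage points, with p = 0.10 in a two-sided exact permutation test over the 10 ways of dividing the 5 lists. That p is the smallest the design allows, so no comparison between these groups can pass 0.05. With the pileups of every list thinned to the background of the shallowest of the 5, the excess was 17.5 points.

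Merging the strongest peaks of the 5 lists gave 14839 regions. Of these, 1768 regions (11.9%) were held by both rep217A lists and no G244E list, and 1111 regions (7.49%) by all 3 G244E lists and no rep217A list. They are called favoured by rep217A and favoured by G244E. Another 3318 regions were held by all 5 lists. The 2 counts are not measured alike, since rep217A regions had to appear in 2 lists and be missing from 3, and G244E regions the reverse. Without any 1 G244E list, which leaves 2 against 2, there were 1975 to 2036 regions favoured by rep217A and 1476 to 1527 favoured by G244E. Favoured is a matter of rank and not of presence. The complete G244E lists called 79.0% to 83.6% of the rep217A-favoured regions, and the complete rep217A lists called 98.9% and 99.2% of the G244E-favoured ones. Only 124 regions of rep217A were called in no G244E list as deposited, and only 4 of G244E in no rep217A list. The complete lists differ in depth and length, and the part of this in these counts was not tested.

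The regions favoured by rep217A lay mostly away from gene ends, and those favoured by G244E lay mostly at them. Of the rep217A-favoured regions, 10.5% had their summit within 1000 bp of a gene end, meaning the first or last base of a protein-coding gene in RefSeq's GRCh38.p14 annotation, against 55.4% of the G244E-favoured regions. The figure was 51.9% for the regions held by all 5 lists and 37.8% for all 14839. The median distance to a gene end was 26484 bp for rep217A-favoured and 438 bp for G244E-favoured regions. Regions over 5000 bp from any gene made up 36.4% of the rep217A-favoured class and 16.0% of the G244E-favoured class. Chromosome 19, which is dense in genes, held 2.43% of the rep217A-favoured and 7.74% of the G244E-favoured regions. Thinned to that common background, the share at gene ends was 11.4% of rep217A-favoured and 54.1% of G244E-favoured regions.

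The same contrast held for all strongest peaks of each list. Within 1000 bp of a gene end lay 37.0% and 36.0% of the strongest rep217A peaks, against 51.3%, 51.8% and 49.0% of the G244E peaks. The means were 36.5 ± 0.735% in rep217A and 50.7 ± 1.47% in G244E (SD, n = 2 and 3), a difference of -14.2 percentage points. The groups did not overlap, and the two-sided exact permutation p was 0.10. The share over 5000 bp from any gene was 25.6% and 26.6% in rep217A, against 18.8%, 18.6% and 19.8% in G244E, again without overlap and with an exact permutation p of 0.10. Measured from the transcription starts of the promoter table in place of gene ends, 35.0% and 33.9% of rep217A peaks lay within 1000 bp, against 47.9%, 48.8% and 46.1% of G244E peaks. WT lists averaged 40.3 ± 1.43% at gene ends, between the 2 variants, and Empty lists 30 ± 4.07% (SD, n = 3 each). Of the other variants, K243A stood nearest to G244E at 47.9 ± 0.856% (SD, n = 3), with a mean relative depth of 0.178. The median width of the strongest peaks was 659 and 693 bp in rep217A, against 634, 611 and 648 bp in G244E. The difference of the means was 45.0 bp, with a two-sided exact permutation p of 0.10. It was 23.4 bp under ranking by fold enrichment, where the exact permutation p was 0.20. When thinned it was 34.1 bp, with a mean exact permutation p of 0.20 over the draws.

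**Figure D1:**
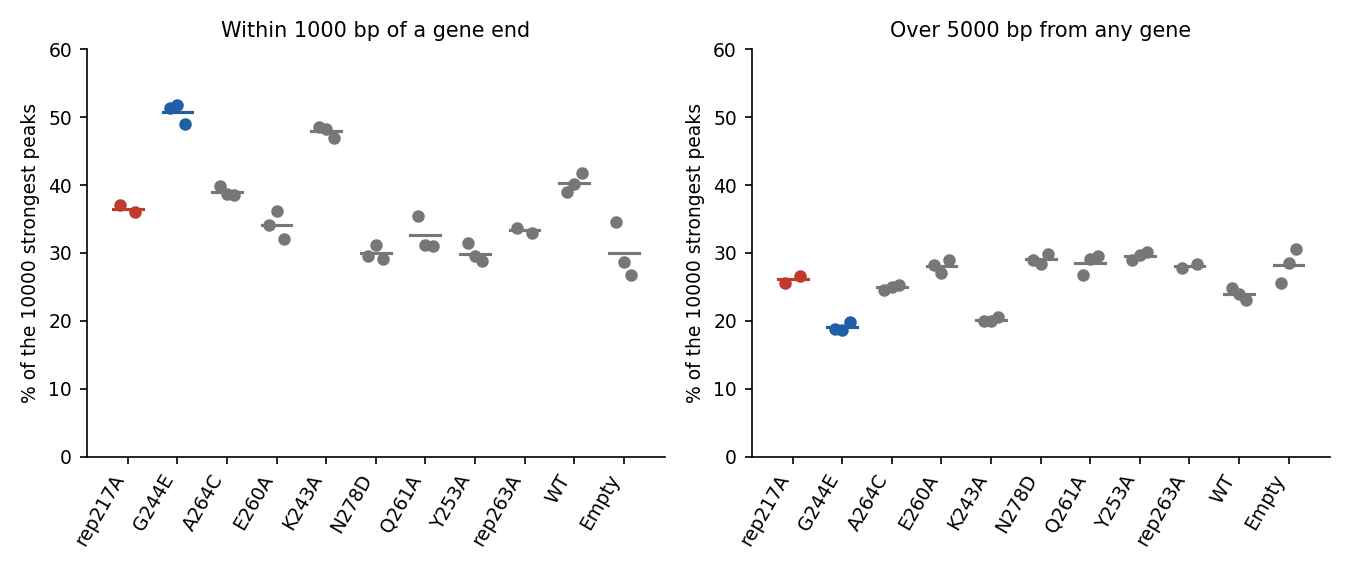
Share of the 10000 strongest peaks of each list within 1000 bp of a gene end (left) and over 5000 bp from any gene (right), in percent; each point is 1 list and each line a group mean. The rep217A lists sit at 37.0% and 36.0% at gene ends, below all 3 G244E lists at 49.0% to 51.8%, and above them in the share away from genes.

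The 10 strongest regions favoured by rep217A were all away from gene ends: 6 lay between genes, 3 inside a gene and 1 just outside one. The top region lay 116674 bp from NCAM1, a neural cell adhesion molecule (chr11:112844305-112844991, hg38), with folds of 18.0 and 20.1 in rep217A, against 7.28, 7.04 and 9.14 in G244E. A fold is the authors' enrichment of the peak summit over its local background, for the best peak of the region in each list. The NCAM1 region ranked 106 and 62 in the rep217A lists, against 16446, 13980 and 10902 in the G244E lists. The region near MLPH, which encodes melanophilin, a linker that ties melanosomes to myosin (chr2:237482980-237483766), had folds of 14.8 and 14.1 in rep217A, against 7.30, 6.92 and 7.49 in G244E. It lay 2874 bp outside the gene, and its best rank in G244E, 10052, was barely outside the limit. A separate peak beside the region (chr2:237482560-237482849) ranked 8999 in the first G244E list, with a fold of 8.12. That list thus had a strongest peak near MLPH. All folds of the rep217A lists stood above those of the G244E lists in both regions.

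The largest folds among these 10 were those of a region inside DHX29, a helicase of translation initiation (chr5:55276693-55277284), at 33.3 and 32.7 in rep217A, against 6.92, 6.78 and 8.45 in G244E. A region 59504 bp from MYCN, a MYC family transcription factor (chr2:16006151-16006881), had 23.7 and 25.4 in rep217A, against 8.63, 4.72 and 6.76 in G244E. It was the 1 region of the 10 that no WT list held among its strongest peaks, and no K243A or Empty list did either, although every list of the remaining 6 groups did. The weakest counterpart in G244E was the region inside DRC4, a dynein regulatory complex gene (chr16:90035762-90036552), with folds of 16.2 and 17.2 in rep217A. It was not called in the first G244E list and had folds of 2.60 and 4.64 in the others. The remaining regions were near ZSCAN22, TOMM20, TJP1, GPC1 and NFKBIA. Across all 10, rep217A folds ran from 12 to 33.3 and G244E folds from 2.60 to 9.14, values that describe how the regions were chosen.

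The 10 strongest regions favoured by G244E were the reverse in place: 8 lay at gene ends. The first, 127 bp from HIBADH, an enzyme of valine breakdown (chr7:27662483-27663276), had folds of 9.31 and 9.15 in rep217A, against 17.3, 17.4 and 18.3 in G244E. The region at TSGA10, 19 bp from its end and over the LIPT1 window printed above (chr2:99154590-99155583), had folds of 6.69 and 8.70 in rep217A, against 17.2, 17.9 and 16.3 in G244E. It ranked 28265 and 19912 in rep217A, against 259, 196 and 361 in G244E. The region at SNRPD3, a core protein of the spliceosome (chr22:24554991-24556042), had folds of 7.69 and 8.21 in rep217A, against 13.9, 12.2 and 14.5 in G244E, and it covers the GUCD1 window. In each of these, every G244E fold was above every rep217A fold, which describes how the regions were chosen.

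At SLC25A40, a mitochondrial carrier whose region covers the DBF4 window, folds were 8.94 and 8.20 in rep217A, against 12.5, 15.7 and 15.7 in G244E. At XPO1, the exporter of nuclear proteins (chr2:61538108-61538949), they were 8.66 and 8.80 in rep217A, against 12, 12.2 and 11.0 in G244E, and both rep217A ranks, 10324 and 10195, fell just outside the limit. Further regions of the set lay at CAMLG, THEM6, NFIA and ZNF771. Over the 9 regions named, folds ran from 6.69 to 12.6 in rep217A and from 11.0 to 21.8 in G244E, again values that describe the choice. All 10 regions were also among the strongest peaks of every WT and every K243A list. For rep217A, 9 of 10 were held by every WT list and 4 of 10 by every K243A list. Of the rep217A regions 8 were in no Empty list, and of the G244E regions 4. With 20000 strongest peaks in place of 10000, 1 of the 10 rep217A regions and 0 of the 10 G244E regions still counted as favoured.

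**Figure D2:**
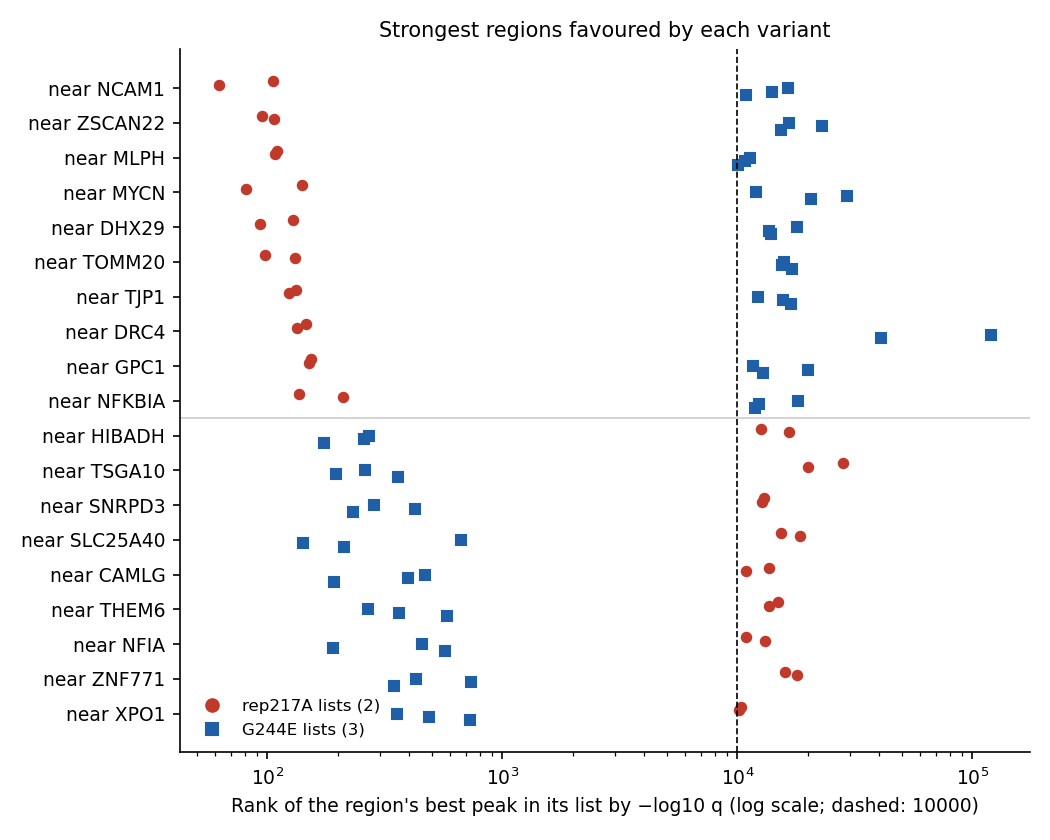
Rank of the best peak of each region named in the text (10 favoured by rep217A above, 9 favoured by G244E below) in each list by −log10 q, on a log axis, with circles for the 2 rep217A lists, squares for the 3 G244E lists and a dashed line at 10000. The rep217A-favoured regions rank 62 to 209 in rep217A and 10052 or lower down in G244E, while the G244E-favoured ones rank 10195 or lower down in rep217A and 142 to 735 in G244E.

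Many regions favoured by rep217A were found among the strongest peaks of no other group. Of the 1768 regions, 587 (33.2%) were held by none of the 26 other lists, against 47 of the 1111 regions (4.23%) favoured by G244E. Of the 3318 regions held by all 5 lists, 3 (0.0904%) were in none. As with the counts, the classes are not measured alike, since rep217A regions had to appear in 2 lists and G244E regions in 3. At gene ends lay 6.81% of these 587 and 40.4% of those 47. They were not the strongest of their class, with a median mean rank of 5490, against 4301 for the rep217A-favoured regions that another list also held. Their share grew down the ranks, from 15.5% in the strongest of 5 equal rank groups of the class to 41.6% in the weakest. The complete WT lists called 95.7 ± 0.520% of the 587 regions (SD, n = 3) and the complete Empty lists 25.0 ± 4.43% (SD, n = 3), so here too the regions stood out by rank. When all lists were ranked by fold enrichment, 410 of 1842 rep217A-favoured regions (22.3%) and 24 of 1040 G244E-favoured regions (2.31%) were held by no other list.

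Of the regions held by no other group, the 5 strongest of each variant were picked out after their values were seen. For rep217A they lay near MAF, NAALADL2, SIX3, MBP and KIF13B. The MAF region (chr16:79599808-79601734), 135 bp from the gene end and over the window printed above, had folds of 12.4 and 11.0 in rep217A, against 5.93, 7.17 and 5.84 in G244E. A region deep inside NAALADL2 (chr3:174821489-174821861) had 32.9 and 35.2 in rep217A, against 4.43 and 2.71 in 2 of the G244E lists, and the third did not call it. Near SIX3, a homeobox gene of eye and forebrain development (chr2:44949501-44950535), folds were 19 and 21.5 in rep217A, against 1.79 in the 1 G244E list that called it. For G244E they lay near CSNK1E, TCF4, EVA1A, INAFM2 and CAMSAP1. The region at CSNK1E, a casein kinase (chr22:38318095-38318691), had 3.64 and 5.21 in rep217A, against 11.7, 9.08 and 11.0 in G244E.

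Most genes held a single favoured region. Those favoured by rep217A lay inside or within 5000 bp of 1111 genes, 126 of which had 2 or more, and G244E-favoured regions lay at 1193 genes, 47 of which had 2 or more. The genes with a rep217A-favoured region had a median length of 79.5 kb, against 34.6 kb for G244E-favoured ones and 24.2 kb for all 19974 protein-coding genes. With 4 rep217A-favoured regions each and no G244E-favoured one, PITPNC1, SH3BP4, ABCA4, LIMA1, FRMD4A and GPHN led, followed by CDH1 and PARD3 with 3. PITPNC1 encodes a phosphatidylinositol transfer protein, LIMA1 an actin-binding protein, CDH1 E-cadherin and PARD3 a cell polarity protein. In LIMA1 and in FRMD4A no region was among the strongest peaks of any WT list, whereas PITPNC1 and GPHN each had 2 of 4 regions in every WT list. All 30 of these regions lay inside their genes.

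The G244E counterparts were led by SOX12, PPFIA3 and PTPRS with 3 favoured regions each, followed by TSGA10, C2orf15, ZNF771, GNA12 and KIF22 with 2. SOX12 is a short transcription factor gene of 4.67 kb, PTPRS a receptor phosphatase and KIF22 a chromosome-bound kinesin. TSGA10 and C2orf15 share their regions. The gene lengths of these 8 ran from 4.67 to 158 kb, against 98.2 to 1227 kb for the rep217A set. Regions of both kinds were found at 68 genes. ASAP1, an Arf GTPase-activating protein, had 3 favoured by rep217A and 2 favoured by G244E.

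Fewer genes had a strongest peak near an end in rep217A. Counting genes with a summit within 5000 bp of either end, called strong genes, gave 4456 ± 92.6 in rep217A and 5717 ± 121 in G244E (SD, n = 2 and 3), or 22.3% and 28.6% of protein-coding genes. The exact permutation p was 0.10. Of 7982 genes strong in any of the 5 lists, 315 (3.95%) were strong in both rep217A lists and no G244E list, and 809 (10.1%) in all G244E lists and no rep217A list. Over the 204 genes of 16 lists, 128 were strong in any of the 5 lists. Of these, 9 (7.03%) were strong in both rep217A lists and no G244E list, and 9 (7.03%) in all G244E lists and no rep217A list. Peaks at a gene do not measure its expression, so the marker lists among the 16 say nothing on the identity of the cells.

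The 9 list genes strong in rep217A alone of the 2 variants included pigment, lysosome and lineage genes. At TYR, which encodes tyrosinase, the key enzyme of melanin synthesis, the best peak had folds of 8.84 and 8.58 in rep217A, against 6.19, 5.14 and 7.80 in G244E. TYR ranked 8092 and 9018 in rep217A, against 18686, 23014 and 13759 in G244E. At IRF4, a pigment-cell transcription factor gene, folds were 11.4 and 11.2 in rep217A, against 6.40, 5.50 and 4.64 in G244E, and ranks were 643 and 615 in rep217A, against 16281, 17616 and 27009 in G244E. Both genes were strong in every WT list and in no Empty list. ATP6AP1, an accessory subunit of the proton pump, had 18.0 and 13.5 in rep217A, against 4.32, 4.88 and 6.52 in G244E. HEXA, a lysosomal hexosaminidase, had 13.1 and 13.8 in rep217A, against 5.42, 5.52 and 6.49 in G244E. Both were strong in every WT list and in no Empty or K243A list.

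RRAGD, a GTPase of amino acid sensing at the lysosome, was also in this set and was strong in 2 of 3 WT lists. Its folds were 11.3 and 12.5 in rep217A, against 6.77, 4.91 and 9.38 in G244E. The 6.77, in the first G244E list, belongs to a peak at the other end of the gene. The remaining genes were strong in at most 1 WT list. MITF itself had 10.2 and 9.47 in rep217A, against 7.21, 6.83 and 7.84 in G244E, from peaks at different sites near the same gene end. It was strong in 2 Empty lists, in no WT list and in no list of the other variants. SOX9, a neural crest factor, had 12.8 and 14.9 in rep217A, against 3.08, 6.62 and 9.74 in G244E, and was strong in no WT list and 1 Empty list. The 3.08, in the first G244E list, belongs to a different site inside the gene. CCN1, a matricellular protein gene, was strong in 1 WT list and 1 Empty list.

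The 9 list genes strong in G244E alone of the 2 variants included both JUNB and FOSB, subunits of AP-1. JUNB had folds of 7.11 and 6.96 in rep217A, against 11.0, 9.14 and 10.5 in G244E, with ranks of 11630 and 11326 in rep217A, against 982, 1345 and 1213 in G244E. FOSB had 5.89 and 7.37 in rep217A, against 8.06, 7.44 and 9.07 in G244E. JUNB was strong in 2 WT lists and FOSB in 3. TEAD4, a Hippo pathway factor, had 5.84 and 5.48 in rep217A, against 9.61, 8.18 and 12.1 in G244E, and was strong in no WT list. SNAI2, a neural crest factor known as SLUG, had 8.17 and 10.7 in rep217A, against 9.58, 11.1 and 11.2 in G244E, so its folds overlapped between the variants. GLA and FLCN, a lysosomal galactosidase and folliculin of the nutrient-sensing pathway, also had overlapping folds, as did FANCA of DNA repair and SDHA of the respiratory chain. SNAI2, GLA and FLCN were strong in every WT list and in every list of the variants other than rep217A. FANCA was strong in 1 WT list. In rep217A, SNAI2 ranked 18206 and 10372, the latter just outside the limit. PKP1, a plakophilin of keratinocyte junctions, had 6.34 and 10.7 in rep217A, against 13.5, 12.9 and 15.4 in G244E. Its peak was strong in every WT list.

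Counted by list, 5 of 16 lists did not overlap between the variants. With so few peak lists, counts can separate without any difference between the variants, and how many would do so was not tested. Of 16 pigmentation genes, 9 and 9 were strong in rep217A, against 4, 8 and 6 in G244E, beside a mean of 11.0 ± 0 in WT lists and 3.67 ± 2.08 in Empty lists (SD, n = 3 each). Of 15 lineage regulators, 5 and 5 were strong in rep217A, against 4, 1 and 3 in G244E, but Empty also averaged 5 ± 2 (SD, n = 3). The next 3 lists were higher in G244E, as were all protein-coding genes at 22.3% in rep217A and 28.6% in G244E, so their direction is that of the background. AP-1 subunits were strong in 5 and 5 of 10 in rep217A, against 7, 7 and 7 in G244E. Housekeeping genes were strong in 10 and 11 of 16 in rep217A, against 12, 13 and 12 in G244E. Keratinocyte markers were strong in 0 and 0 of 12 in rep217A, against 1, 3 and 2 in G244E. Proton pump genes were strong in 11 and 11 of 15 in rep217A, against 11, 9 and 10 in G244E, which overlap. The lists of lysosomal enzymes, autophagy, nutrient sensing, MITF relatives, survival and cell cycle, invasive state, DNA repair, ribosomal proteins and lymphoid markers overlapped too, and no hepatocyte marker was strong in any of the 5 lists. These counts depend on the settings. With 20000 strongest peaks the mean difference, rep217A minus G244E, was 0.167 genes for pigmentation against 3.00 with 10000 peaks, 0.167 against -2 for AP-1 subunits and 0 against -1.83 for housekeeping genes. Within 1000 bp of a gene end, it was 0 against -2 for keratinocyte markers and 0.833 against 2.33 for lineage regulators, and 1 of the 16 lists did not overlap.

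**Figure D3:**
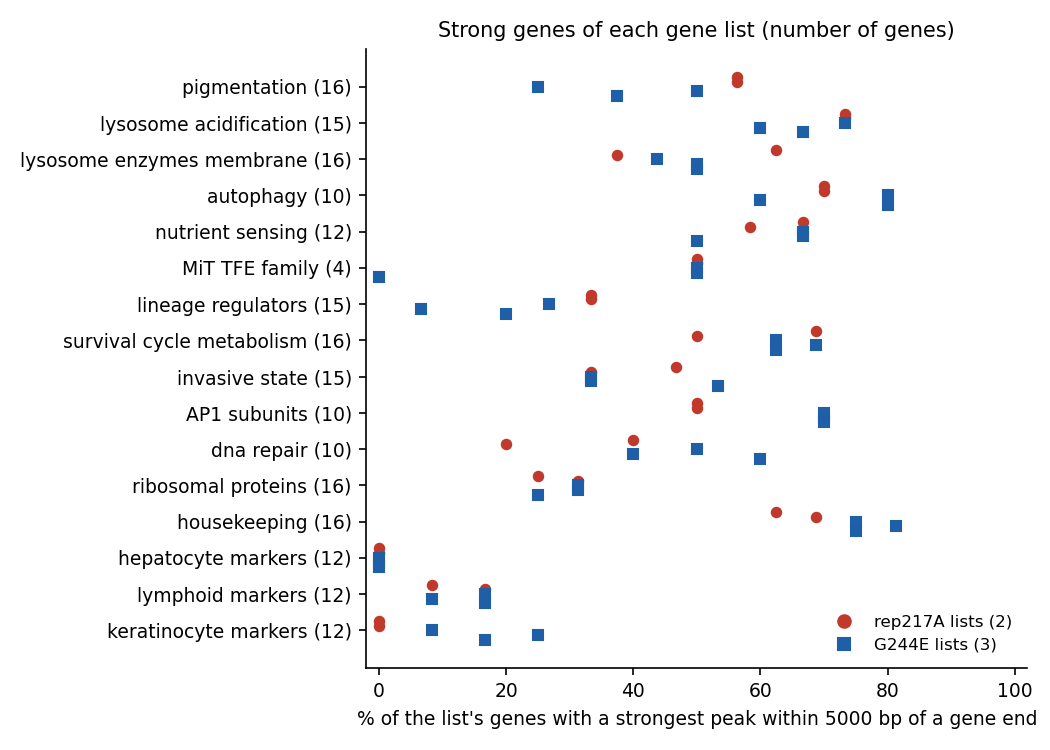
Percent of the genes of each list with a strongest peak within 5000 bp of a gene end, with circles for the 2 rep217A lists and squares for the 3 G244E lists; the number of genes stands beside each name. Pigmentation and lineage genes lie higher in rep217A, and AP-1, housekeeping and keratinocyte genes lie higher in G244E, as all protein-coding genes do; with 20000 strongest peaks the pigmentation, AP-1 and housekeeping differences were 0.167, 0.167 and 0 genes.

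Among the genes strong in all 5 lists, rank separated the lists further. Of 2746 such genes, the best peak of 431 (15.7%) ranked higher in both rep217A lists than in any G244E list, and that of 1185 (43.2%) ranked higher in all G244E lists than in any rep217A list. The best peak of a gene could lie near either end, and at different sites in different lists. Proton pump genes ran the other way, with 4 of 8 higher in rep217A and 0 of 8 in G244E. These were ATP6V0D1, ATP6V1C1, ATP6V1D and ATP6V1G1. ATP6V1G1 ranked 9 and 12 in rep217A, against 1013, 3744 and 2851 in G244E, and ATP6V0D1 ranked 27 and 16 in rep217A, against 3119, 6350 and 8647 in G244E. Ranked by fold enrichment, 5 of 8 were higher in rep217A, and the mean over 5 thinned draws was 3.60 of 7.

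Survival and cell cycle genes followed with 5 of 7 higher in rep217A, namely BCL2L1, CDK2, CDKN1A, HIF1A and APEX1, and 0 of 7 in G244E, but with 2 of 7 when ranked by fold. The best peaks of BCL2L1 lay near opposite ends of the gene in the 2 variants, so its ranks compare different sites. Nutrient-sensing genes had 3 of 5 higher in rep217A and none in G244E, and 2 of 5 higher in rep217A when ranked by fold. For MTOR, 1 of the 3, the best peak of the second rep217A list lay at the other end than in the remaining lists. AP-1 subunits had 1 of 5 higher in rep217A, FOS, and 4 of 5 higher in G244E, FOSL1, FOSL2, JUN and JUND. The best peak of FOSL1 lay at the other end in the third G244E list than in the remaining lists. Ranked by fold, 1 of 4 AP-1 subunits was higher in rep217A and 2 of 4 in G244E. JUN ranked 1655 and 1297 in rep217A, against 590, 777 and 340 in G244E. Of the housekeeping genes, 0 of 8 were higher in rep217A and 4 of 8 in G244E, namely GAPDH, PGK1, PPIA and POLR2A. The share higher in G244E was near the 43.2% of all 2746 genes. Ranked by fold, 1 of 6 housekeeping genes was higher in rep217A and 2 of 6 in G244E. The strongest peak of all lay at NAPA, a vesicle fusion factor gene, in both rep217A lists (chr19:47514937-47515692), with folds of 23.7 and 24.5. In all 3 G244E lists it lay at PGK1, which encodes a glycolytic kinase (chrX:78103743-78104378), with folds of 20.5, 19.4 and 21.3.

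The promoters reached by each variant held these motifs in slightly different shares. Windows overlapped by a strongest peak numbered 3518 and 3398 in rep217A, against 4670, 4648 and 4498 in G244E, of 22012 windows of 15712 genes. CATGTG, on either strand, was in 6.63 ± 0.244% of the rep217A windows and 5.21 ± 0.148% of the G244E windows (SD, n = 2 and 3), beside 8.96% of all windows and 7.16 ± 0.133% in WT. The longer TCATGTG, which contains it, was in 2.11 ± 0.0518% of rep217A and 1.32 ± 0.0726% of G244E windows, against 2.32% of all. TGANTCA was in 3.95 ± 0.0764% of rep217A and 3.26 ± 0.0926% of G244E windows, against 6.16% of all. For these the groups did not overlap, with an exact permutation p of 0.10 each. For CACGTG the groups overlapped, at 12.6 ± 0.453% in rep217A and 12.9 ± 0.337% in G244E (exact permutation p = 0.50), above 8.32% of all windows, above 10.7 ± 0.539% in Empty and below 17.5 ± 0.174% in WT. GC boxes were in 79.3 ± 0.209% of rep217A and 81.2 ± 0.515% of G244E windows, against 56.3% of all. The G or C content of windows averaged 66.5% in rep217A and 67.6% in G244E, again without overlap. The part of base content in these shares was not tested.

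The windows under favoured regions showed the contrast more widely. There were 199 under rep217A-favoured and 721 under G244E-favoured regions. TCATGTG was in 11 of the 199 (5.53%) and in 4 of the 721 (0.555%). TGANTCA was in 9.55% of the rep217A-favoured and 2.77% of the G244E-favoured windows. GC boxes were in 59.8% of the rep217A-favoured and 81.4% of the G244E-favoured windows, and the G or C content was 61.9% in the rep217A-favoured and 69.1% in the G244E-favoured windows, against 60.9% in all windows. CACGTG was in 9.55% of the rep217A-favoured and 13.2% of the G244E-favoured windows. The searches covered both strands.

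The other groups of the series shared the 2 classes unequally. Strongest peaks of WT held 26.2 ± 1.43% of the rep217A-favoured and 56.0 ± 0.987% of the G244E-favoured regions (SD, n = 3). K243A had the widest gap, holding 14.6 ± 0.540% of the rep217A-favoured and 64.3 ± 1.76% of the G244E-favoured regions (SD, n = 3). K243A minus WT was -11.5 points in the rep217A-favoured class and 8.31 points in the G244E-favoured class, each without overlap and with an exact permutation p of 0.10, the smallest for 3 against 3. At the other end, Y253A held 33.7 ± 1.25% of the rep217A-favoured and 46.4 ± 1.07% of the G244E-favoured regions (SD, n = 3). Empty lists held 9.65 ± 1.75% of the rep217A-favoured and 25.3 ± 3.25% of the G244E-favoured regions (SD, n = 3). The gap in WT depended on the ranking. By fold enrichment, WT held 35.1 ± 1.20% of the rep217A-favoured and 37.5 ± 1.02% of the G244E-favoured regions, and 5 of the other groups turned round. Y253A held 38.7 ± 0.734% of the rep217A-favoured and 29.2 ± 0.389% of the G244E-favoured regions (SD, n = 3 each). The means were 36.1% of the rep217A-favoured and 35.4% of the G244E-favoured regions in A264C, 36.0% and 30.4% of these classes in E260A, 37.7% and 29.9% in N278D, and 36.8% and 32.7% in Q261A. K243A, at 16.1 ± 0.598% of the rep217A-favoured and 65.2 ± 2.26% of the G244E-favoured regions, and Empty, at 8.89 ± 1.22% of the rep217A-favoured and 37.7 ± 2.64% of the G244E-favoured regions (SD, n = 3 each), kept their gaps. The share at gene ends did too, at 8.85% of rep217A-favoured and 53.6% of G244E-favoured regions.

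**Figure D4:**
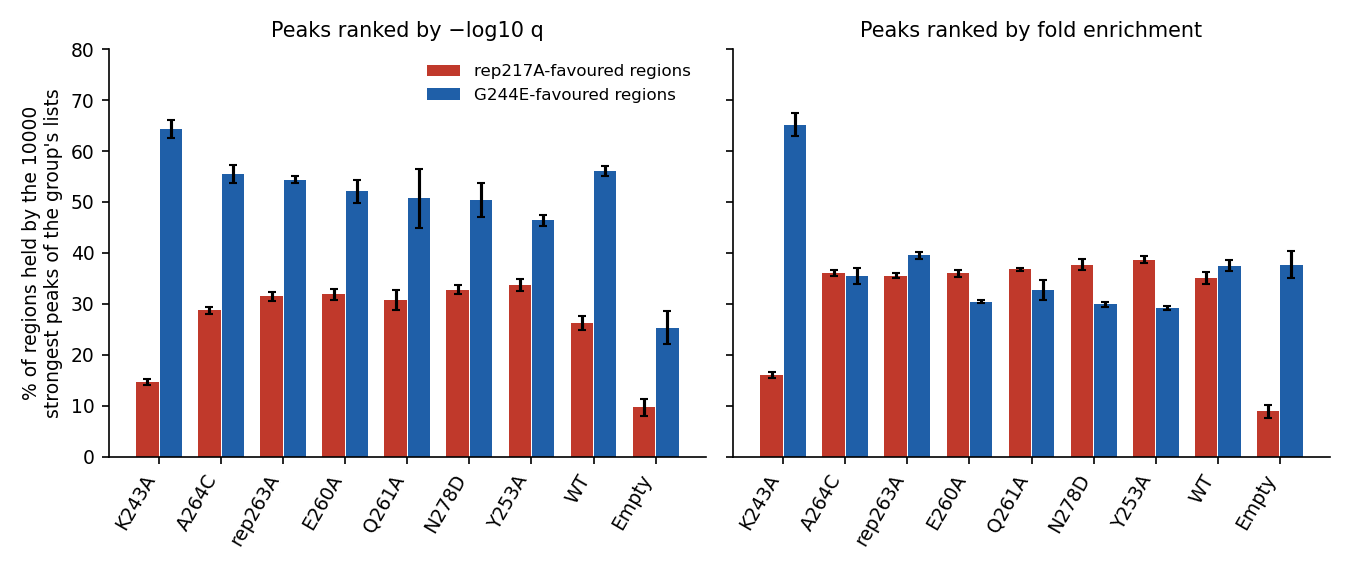
Percent of the rep217A-favoured (left bar of each pair) and G244E-favoured regions (right bar) held by the 10000 strongest peaks of the other groups, as means over lists with SD bars, for peaks ranked by −log10 q (left) and by fold enrichment (right). K243A holds 14.6% of the rep217A-favoured and 64.3% of the G244E-favoured regions in the left panel, while the WT gap of the left panel is nearly absent in the right.

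Over all strongest peaks, 59.6 ± 0.0283% in rep217A and 64.1 ± 0.685% in G244E lay on regions common to the 3 WT lists (SD, n = 2 and 3; exact permutation p = 0.10). Ranked by fold, the order turned round, at 42.6% in rep217A and 41.2% in G244E. Regions common to at least 2 Empty lists took 35.0 ± 0.686% of rep217A and 39.0 ± 0.225% of G244E peaks (exact permutation p = 0.10), a difference of -4.01 points that was -1.23 with 20000 strongest peaks. K243A peaks overlapped 63.1 ± 0.471% of the rep217A peaks and 74.1 ± 0.621% of the G244E peaks (exact permutation p = 0.10), the widest of the differences to the 9 other groups. The smallest of these differences was with Y253A peaks, which overlapped 60.8 ± 0.0684% of the rep217A peaks and 61.9 ± 0.970% of the G244E peaks (exact permutation p = 0.20). Relative depth was 1.15 in WT, 1.06 in Y253A and 0.178 in K243A, and the part of depth in these overlaps across groups was not tested.

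The 3318 regions held by all 5 lists repeated the contrast by rank. Of these, 671 (20.2%) ranked higher in both rep217A lists than in any G244E list, and 1234 (37.2%) ranked higher in all G244E lists. At gene ends lay 35.0% of the first set and 61.8% of the second, against 51.2% of the 1413 regions whose ranks overlapped. Where both variants had a peak, their summits lay close together. The median distance between summits was 14 bp between the 2 rep217A lists, 20 to 21 bp between a rep217A and a G244E list, and 19 to 21 bp between G244E lists.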

How the data were processed

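CUT&Tag peak lists of UACC-257 cells were analysed for rep217A (3 libraries, 2 distinct lists) and G244E (3 libraries), with the lists of the other groups as context. Per the submitters' processing notes, bcl2fastq 2.20.0.422, Bowtie2 2.3.4.3, MACS2 (version not given in the sources used here) and the hg38 build were used. Each deposited narrowPeak list comes from 1 library. The deposited columns hold the fold enrichment of the summit, a ratio over local background, the −log10 of its p-value and q-value, and the offset of the summit from the peak start in bases. The control and the settings behind the authors' lists are not given in the sources used here.

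Peaks on chromosomes 1 to 22 and X were ranked by −log10 q, ties by p, fold and position, and the 10000 first were kept. Overlap meant 1 bp or more. The lists give no read totals, so the whole-number pileup behind each summit was recovered from fold and p, and its commonest background served as relative depth. As a check on depth, pileups of the called peaks were thinned at random to a background of 0.108 and ranked again, with means over 5 draws. Tests were two-sided exact permutation tests over the 5 lists, except that K243A was compared with WT over their 6 lists and the replicate block used 2 pairs.

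The named regions are the 10 of lowest mean rank in each class. The named genes are the 8 with most favoured regions of 1 class and none of the other, list genes strong in every list of 1 variant and none of the other, and MITF. A named region and a list gene are not reported here. Members and gene lists were chosen with earlier results of these data known. All 204 genes of the 16 lists matched the RefSeq table, and 149 of them had a promoter window. Sequences and gene positions are from RefSeq (GRCh38.p14). Alternatives were the number of peaks, ranking by fold, distinct intervals, the overlap needed, other distances, complete lists, each list left out, the replicate block and thinning. Starts from the promoter table, rank order under thinning and fold ranking, and the other groups under fold ranking were added after seeing the data. Python 3.11.15, numpy 2.4.6, pandas 2.3.3, scipy 1.17.1 and matplotlib 3.10.9 were used.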

Additional observations from a re-analysis of the deposited data

How the results depend on the processing

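The larger share of gene ends in G244E and the larger share between genes in rep217A kept their direction under every alternative run. The difference at gene ends ran from -23.8 to -8.76 percentage points, and from -15.0 to -13.7 with 1 list left out. Regions favoured by rep217A numbered 696 with 2000 strongest peaks, 124 when they had to be missing from the complete G244E lists, and 1975 to 2612 with 1 list left out. Regions favoured by G244E numbered 508, 4 and 1464 to 1531 under these settings. The share of strongest peaks on WT regions reversed under ranking by fold enrichment, to 1.41 points. The difference between the classes in WT lists, -29.8 points, was -21.5 with 5000 peaks, -2.48 by fold enrichment, -32.9 when thinned, and -37.5 to -18.3 with 1 list left out. The causes were not tested. Of 16 gene lists, 5 did not overlap between the variants, against 9 with 2000 peaks, 2 with 20000, 1 with distinct intervals, 1 within 1000 bp, and 5 to 8 with 1 list left out.

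Replicate numbers do not pair the samples, which share only a number. As a replicate block, the lists numbered 1 were paired. The rep217A list of replicates 2 and 3 was paired with the mean of G244E replicates 2 and 3. The differences were then -14.4 points at gene ends, 7.10 between genes, -4.47 on WT regions, -4.05 on Empty regions and 44.2 bp in width. Each had an exact permutation p of 0.50, the smallest that 2 pairs allow.

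With 2 lists against 3, no comparison can pass 0.05. Depth differs between the variants and, more widely, between groups, and thinning matched only the commonest background of the called peaks, so folds and widths compared between lists carry that difference. Peak lists hold no signal for places without a call, so a region that was not called has no value.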
